A study of Mus musculus with 33 samples.

Results

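The genes described here were 8 regulators of the forebrain and eye field, Lhx2, Lhx5, Six3, Rax, Hesx1, Fezf1, Fezf2 and Wnt8b, taken by name from the 21844 genes to which the deposited RefSeq transcripts were summed. Each was represented by a single transcript, NM_010710.3 for Lhx2, NM_008499.5 for Lhx5, NM_011381.4 for Six3, NM_013833.2 for Rax, NM_010420.2 for Hesx1, NM_028462.1 for Fezf1, NM_080433.3 for Fezf2 and NM_011720.3 for Wnt8b. The RefSeq table places them on mouse chromosomes 2, 5, 17, 18, 14, 6, 14 and 19, in that order.

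The cells were mouse embryonic stem cells grown in serum-free medium as embryoid bodies, which are floating aggregates of differentiating cells. They were dispersed on day 2, treated until day 4 and then harvested, and no genotype or line is named in the labels. Treatment was SB-431542 (SB), an inhibitor of the type I receptors for activin, Nodal and TGF-β, at a concentration not given in the sources used here, or activin A, a secreted factor of the TGF-β family that shares its receptors with Nodal. Activin A was used at 3 ng/mL (AA3), 15 ng/mL (AA15) or 100 ng/mL (AA100), and control cells in serum-free medium alone were called SFM. The dose set held 1 SB, 2 SFM, 1 AA3, 2 AA15 and 1 AA100 library, all made by DP-seq, in which cDNA is amplified with a defined collection of heptamer primers. A method set held AA100 and AA3 samples prepared by standard RNA-seq from 20 ng of mRNA, by DP-seq from 50 pg and by SMART-seq, a full-length cDNA amplification, from 50 pg. A dilution series held AA3 mRNA at 6 inputs between 1 pg and 10 ng, with 2 DP-seq libraries each.

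The AA15 pair and every pair in the other sets were technical replicates by their labels. Whether the SFM pair was drawn from separate cultures is not given in the labels, and SFM replicate 2 also carried spiked yeast transcripts. Dose-set libraries held 13053122 to 15707808 counts, and all 33 libraries 427556 to 30609013. SFM replicate 2 stood apart from the rest. Over genes with counts in both libraries, the SD of the log2 ratio between the SFM libraries was 1.84, against 0.451 for the AA15 pair, and Otx2, a general forebrain and midbrain marker, was 17.5-fold lower in SFM replicate 2 than in replicate 1. Results that rest on SFM are therefore given with and without SFM replicate 2. Levels are given as CPM, a gene's counts per 1000000 counts of its library. CPM is not corrected for transcript length, so a gene was compared between samples and not with another gene.

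In the mouse embryo, the front of the neural plate forms where Nodal and Wnt signals are kept low. Six3, Rax and Lhx2 are homeobox genes needed in the eye field, the region of the anterior neural plate that gives rise to the eyes, and Six3 also represses Wnt ligand genes there. Hesx1 encodes a homeobox repressor needed for the forebrain and pituitary, and it is also expressed in the anterior endoderm of the early embryo. Fezf1 and Fezf2 are related zinc finger repressors that pattern the forebrain. Lhx5 is a LIM homeobox gene of the early forebrain and hippocampus, and Wnt8b is a Wnt ligand of the caudal forebrain and cortical hem.

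Promoter sequence from RefSeq (build GRCm38.p6, 250 bases before and 50 after the annotated start) was on hand for 6 of the 8 genes, Lhx2, Six3, Hesx1, Fezf1, Fezf2 and Wnt8b. The deposited files name no build, and the promoters were matched by symbol. The windows of 4 of them are shown because they span the range of base composition and hold all the motif matches described. Lhx2 lies at chr2:38339031-38339330, the first of 2 annotated starts in the table, which does not say to which the counted transcript belongs. Six3 lies at chr17:85620584-85620883, Hesx1 at chr14:27000112-27000411 and Wnt8b at chr19:44493222-44493521, all on the plus strand, written 5′ to 3′.
Lhx2: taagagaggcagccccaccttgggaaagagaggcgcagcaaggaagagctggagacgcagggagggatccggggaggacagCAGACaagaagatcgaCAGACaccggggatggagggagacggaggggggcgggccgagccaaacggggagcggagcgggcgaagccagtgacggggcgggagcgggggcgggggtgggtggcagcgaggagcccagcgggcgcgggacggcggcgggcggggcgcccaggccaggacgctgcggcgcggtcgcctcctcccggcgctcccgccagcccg
Six3: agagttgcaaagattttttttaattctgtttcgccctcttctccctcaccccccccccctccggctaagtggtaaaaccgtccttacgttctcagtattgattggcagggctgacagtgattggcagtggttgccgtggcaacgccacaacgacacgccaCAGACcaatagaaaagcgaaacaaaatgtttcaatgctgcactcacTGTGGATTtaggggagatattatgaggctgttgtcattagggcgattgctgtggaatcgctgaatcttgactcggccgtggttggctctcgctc
Hesx1: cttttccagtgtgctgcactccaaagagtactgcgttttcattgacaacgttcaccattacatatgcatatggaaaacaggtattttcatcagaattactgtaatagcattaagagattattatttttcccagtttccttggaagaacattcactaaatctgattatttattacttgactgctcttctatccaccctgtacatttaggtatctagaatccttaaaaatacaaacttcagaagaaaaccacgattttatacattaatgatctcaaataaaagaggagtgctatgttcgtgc
Wnt8b: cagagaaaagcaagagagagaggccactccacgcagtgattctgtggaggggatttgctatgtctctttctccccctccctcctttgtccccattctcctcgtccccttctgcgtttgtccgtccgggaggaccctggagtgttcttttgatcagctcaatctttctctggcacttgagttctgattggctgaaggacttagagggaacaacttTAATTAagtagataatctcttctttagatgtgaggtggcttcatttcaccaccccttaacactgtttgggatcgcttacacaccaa
Capitals mark matches, on either strand, to CAGAC (Smad), AATNCACA (Foxh1), GGATTA (bicoid-type homeodomain) or TAATTA (homeodomain, a palindrome). No matches overlapped one another. The Lhx2 window held 2 CAGAC matches, the Six3 window 1 CAGAC and 1 AATNCACA match, the Wnt8b window 1 TAATTA match and the Hesx1 window none, as was also so for Fezf1, Fezf2 and the window of the other Lhx2 start (chr2:38351058-38351357, GC content 69.3%). Of all 32851 promoters of this length, 49.6% held CAGAC, 3.6% AATNCACA, 7.06% GGATTA and 5.29% TAATTA. GC content was 74.7% for the Lhx2 window shown, 50% for Six3, 33.7% for Hesx1 and 48.3% for Wnt8b, beside a median of 52.7% over all promoters. These matches are letters in a window and were not tied to any binding measurement.

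All 8 genes had lower CPM at 15 and 100 ng/mL activin than in either SFM library, and Fezf1 and Rax had no counts left at 100 ng/mL. Across SFM, AA3, AA15 and AA100, taken as equally spaced steps, the slope of every gene was negative. Those of Fezf1, Wnt8b and Lhx2 passed the test. In bulk samples, fewer cells expressing a gene and less RNA per cell cannot be told apart, here and in all that follows.

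**Figure D1:**
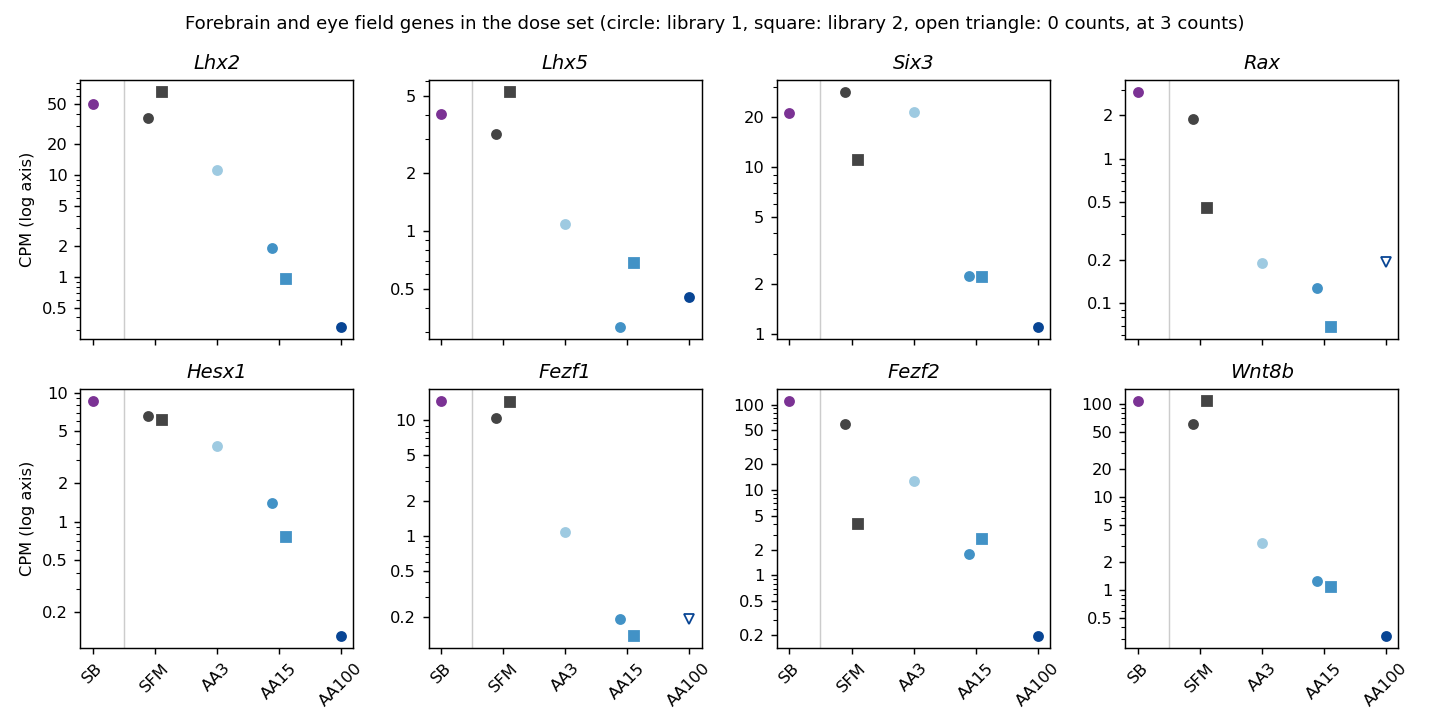
Level of each of the 8 genes (CPM, log axis, a separate range per panel) in the 7 libraries of the dose set, ordered SB, SFM, AA3, AA15 and AA100. Circles are library 1, squares library 2, and open triangles mark 0 counts, drawn at the level of 3 counts. AA15 and AA100 lie below both SFM libraries in every panel, Six3 in AA3 lies between the SFM libraries, and Fezf2 is split between the SFM libraries.

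Lhx2, a LIM homeobox gene needed for eye and cortex formation, had 36.7 and 66.1 CPM in SFM, 11.3 CPM in AA3, 1.91 and 0.959 CPM in AA15 and 0.324 CPM in AA100. The doses did not overlap, and each was below the one before it. The 5 counts left in AA100 gave a level 113-fold below SFM replicate 1 (95% exact binomial interval 48.3 to 351) and 204-fold below SFM replicate 2 (87.2 to 631). Lhx5, of the same family, had 3.18 and 5.29 CPM in SFM, 1.08 CPM in AA3, 0.319 and 0.685 CPM in AA15 and 0.453 CPM in AA100. Its AA100 level lay between the AA15 libraries, and the difference between AA100 and SFM replicate 1 was 7.02-fold (3.17 to 18.4). These intervals cover counting error alone.

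Six3 behaved differently at the lowest dose. It had 28.3 and 11 CPM in SFM and 21.5 CPM in AA3, inside the range of the SFM libraries, but 2.23 and 2.19 CPM in AA15 and 1.1 CPM in AA100. The low group was thus AA15 and AA100, which overlapped neither SFM nor AA3. Six3os1, a long noncoding RNA gene that overlaps Six3 in the RefSeq table, had 43.8 and 52.7 CPM in SFM, 23.2 CPM in AA3, 8.86 and 8.7 CPM in AA15 and 1.29 CPM in AA100. Whether the counting used strand is not given, so the split of reads between Six3 and Six3os1 is uncertain. Rax, the retinal homeobox gene, was near the limit of detection, with 29 and 6 counts in SFM, 3 counts in AA3, 2 and 1 counts in AA15 and 0 counts in AA100. AA100 was at least 9.7-fold below SFM replicate 1 and, for SFM replicate 2, at least 2.37-fold below, with a floor of 3 counts per library.

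Hesx1 had 6.56 and 6.13 CPM in SFM, 3.88 CPM in AA3, 1.4 and 0.754 CPM in AA15 and 0.129 CPM in AA100. It was the gene on which the SFM libraries lay closest, and its level was lower at each successive dose. The 2 counts in AA100 gave a ratio of 50.7-fold below SFM replicate 1, with a counting interval of 13.7 to 424.

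Fezf1 had 10.5 and 14.5 CPM in SFM, 1.08 CPM in AA3, 0.191 and 0.137 CPM in AA15 and 0 counts in AA100. The AA3 library was already 9.72-fold (5.89 to 17.1) below SFM replicate 1, and AA100 was at least 54.2-fold below SFM replicate 1 and at least 74.6-fold below SFM replicate 2. Fezf2 had 58.9 and 3.98 CPM in SFM, 12.8 CPM in AA3, 1.78 and 2.67 CPM in AA15 and 0.194 CPM in AA100. The SFM libraries were 14.8-fold apart, so AA3 was 4.6-fold below SFM replicate 1 yet above SFM replicate 2. Only AA15 and AA100 were below both, and the 3 counts in AA100 stood 303-fold (103 to 1470) below SFM replicate 1 and 20.5-fold (6.64 to 103) below SFM replicate 2.

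Wnt8b, the only secreted ligand of the group, had 61.2 and 106 CPM in SFM, 3.18 CPM in AA3, 1.27 and 1.1 CPM in AA15 and 0.324 CPM in AA100. Most of its fall lay between SFM and the lowest dose. AA3 was 19.2-fold (14.5 to 26.1) below SFM replicate 1 and 33.3-fold (25.1 to 45.1) below SFM replicate 2.

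The slope over the 4 dose groups was tested with edgeR's quasi-likelihood test across 12102 genes with Benjamini-Hochberg adjustment. All 8 genes passed the filter on low counts. Rax did so through SFM replicate 1 alone, and in the contrasts described afterwards through SFM replicate 1 and SB, where it was high. Its calls are therefore no support, and it is left out of the counts of called genes that follow, which are over the other 7. Fezf1 did so through the SFM and AA3 libraries, and in the contrasts also SB, and was below the filter's level in AA15 and AA100. It stays among the 7, and its calls share this limit. With no filter on low counts its slope was −3.26 ± 0.26 (edgeR, adjusted p = 0.01). The slope was −3.27 ± 0.25 log2 units per dose step for Fezf1 (SE; adjusted p = 0.0166), −2.94 ± 0.33 for Wnt8b (adjusted p = 0.0287) and −2.59 ± 0.24 for Lhx2 (adjusted p = 0.0287). These 3 of 7 compare with 0.248% of all genes tested that were called lower, and the median slope of the 7 genes was −2.12, beside 0.001 over all genes. The other slopes, which did not pass, were −2.12 ± 0.45 for Fezf2, −1.92 ± 0.38 for Rax, −1.58 ± 0.25 for Hesx1, −1.56 ± 0.33 for Six3 and −1.31 ± 0.26 for Lhx5, with adjusted p-values of 0.0627 to 0.122. The unadjusted p was below 0.05 for all 7, as for 1531 of the 12102 genes.

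Which library entered decided these calls. Without SFM replicate 2 all 7 genes were called lower, where 2.82% of 11970 genes were, and the slopes ran from −1.02 ± 0.23 for Lhx5 (adjusted p = 0.0169) to −2.99 ± 0.22 for Fezf1 (adjusted p = 4.91e-06). Without SFM replicate 1, Fezf1 and Lhx2 were the only genes of the whole table called, 0.0168% of those tested. Without AA15 replicate 1, and likewise without AA15 replicate 2, no gene of any kind was called. The slope of each of the 8 genes stayed negative in all of these fits in which it was tested. DESeq2 called all 7 lower, beside 2.43% of genes. With SB added as the lowest step 5 were called, beside 0.788% of genes. With log2 of the dose in ng/mL plus 1 in place of steps, 2 were, beside 0.0826%.

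**Figure D2:**
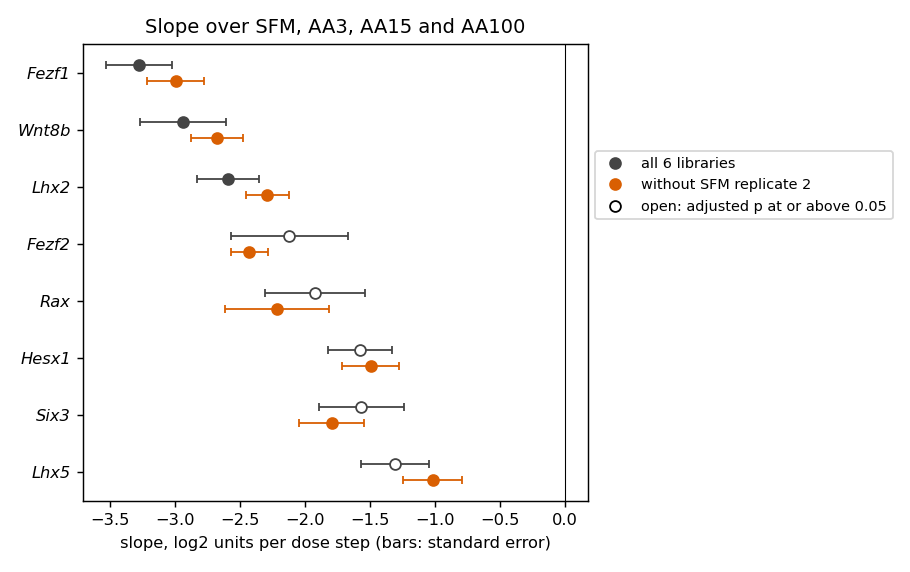
Slope of each gene over SFM, AA3, AA15 and AA100 in log2 units per dose step, with standard errors, fitted with all 6 libraries (grey) and without SFM replicate 2 (orange); filled points have an adjusted p below 0.05. With all 6 libraries Fezf1, Wnt8b and Lhx2 are filled, and without SFM replicate 2 all 8 are. Rax passed the filter through SFM replicate 1 alone, and Fezf1 through SFM and AA3 libraries alone.

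Single contrasts between groups were then fitted over the 7 libraries of the dose set and 12180 genes. No gene of the whole table was called in any of them by edgeR's quasi-likelihood test, so 0 of the 7 genes stood beside 0% of all genes. The unadjusted p was below 0.05 for 2 of the 7 genes in AA3 against SFM, as for 197 of the 12180 genes. It was so for all 7 in AA15 against SFM and in AA100 against SFM, as for 702 and 541 of all genes, and for 4 in AA15 against AA3 and 1 in AA100 against AA15, as for 31 and 56. DESeq2 called 1 of the 7 lower in AA3 against SFM, Wnt8b, beside 0.115% of genes. It called 5 in AA15 against SFM beside 1% of genes, 6 in AA100 against SFM beside 0.583%, and 0 in AA15 against AA3 and in AA100 against AA15, where no gene of the table was called.

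Without SFM replicate 2 the spread came from the AA15 technical pair alone, and SFM, AA3 and AA100 were single libraries, so these p-values measure technical spread. In AA3 against SFM, 4 of the 7 genes were called lower, where 2.48% of 12076 genes were. The log2 changes were −4.15 ± 0.36 for Wnt8b (adjusted p = 3.99e-19), −3.16 ± 0.48 for Fezf1 (adjusted p = 1.74e-07), −2.09 ± 0.32 for Fezf2 (adjusted p = 1.91e-07) and −1.59 ± 0.33 for Lhx2 (adjusted p = 0.000283). Lhx5 at −1.44 ± 0.58, Hesx1 at −0.64 ± 0.43 and Six3 at −0.29 ± 0.32 did not pass. Fezf2 depended on the choice of control, since without SFM replicate 1 it was called higher in AA3, by 1.32 ± 0.36 (adjusted p = 0.000756), as were 31.3% of all genes. In that fit, 5 of the 7 genes, Wnt8b, Fezf1, Lhx2, Lhx5 and Hesx1, were called lower, beside 25.9% of all genes.

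Between AA15 and AA3, again without SFM replicate 2, 6 of the 7 genes were called lower, where 1.03% of genes were. Six3 had the largest of these changes, −3.25 ± 0.31 (adjusted p = 1.78e-16), followed by Lhx2 at −2.93 ± 0.33, Fezf1 at −2.63 ± 0.71, Fezf2 at −2.50 ± 0.31, Hesx1 at −1.81 ± 0.43 and Wnt8b at −1.39 ± 0.39. The order of the genes by size thus differed between the steps, with Wnt8b first in AA3 against SFM and Six3 first in AA15 against AA3; a gene-by-step difference was not tested. Between AA100 and AA15, 3 of the 7 were called lower, Fezf2 at −3.49 ± 0.64, Hesx1 at −3.01 ± 0.84 and Lhx2 at −2.15 ± 0.62, where 0.886% of genes were. Wnt8b (−1.87 ± 0.63, adjusted p = 0.0934) and Six3 (−1.03 ± 0.45, adjusted p = 0.301) did not pass there, and Lhx5, at −0.16 ± 0.76, passed at none of the 3 steps. In AA100 against SFM all 7 were called lower, where 5.74% of genes were, as in AA15 against SFM, where 6.05% were. Without SFM replicate 1 in place of replicate 2, the counts were 7 in AA100 against SFM beside 26.7% of genes, 7 in AA15 against SFM beside 29.8%, 6 in AA15 against AA3 beside 1.27% and 3 in AA100 against AA15 beside 0.993%. With only the groups compared in the fit, 4 of 7 were called in AA15 against AA3 and 1 of the 6 that passed the filter in AA100 against AA15, each beside 1.17% of genes. The latter was Fezf2, which passed the filter there through AA15 alone, where it was high, so its call there is no support.

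In the SB library, where the receptors for activin and Nodal were inhibited, all 8 genes were present, and none was more than 1.88-fold from its level in SFM replicate 1. Fezf2 differed the most from that library, with 111 CPM in SB against 58.9 and 3.98 CPM in SFM. Wnt8b had 108 CPM in SB against 61.2 and 106 CPM in SFM, and Hesx1 had 8.64 CPM in SB against 6.56 and 6.13 CPM in SFM. Rax had 44 counts (2.93 CPM) in SB against 29 and 6 counts in SFM, the most of any dose-set library. Fezf1 had 14.8 CPM in SB against 10.5 and 14.5 CPM in SFM, so its SB level in CPM lay only just above the higher control. CPM lacks the library scaling used in the tests. With that scaling SB was below SFM replicate 2, at −0.39 ± 0.36 log2 units for Fezf1 and −0.40 ± 0.30 for Wnt8b. The SB levels of the others fell inside the SFM range, at 49.8 CPM against 36.7 and 66.1 CPM for Lhx2, 4.06 CPM against 3.18 and 5.29 CPM for Lhx5 and 21 CPM against 28.3 and 11 CPM for Six3.

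With all 7 libraries, edgeR called 0 of the 8 genes in SB against SFM, beside 0% of genes. None had an unadjusted p below 0.05, and DESeq2 called 0 of them, beside 0% of genes called higher and 0.14% lower. Without SFM replicate 2, Fezf2 alone was called higher, by 0.97 ± 0.30 log2 units (adjusted p = 0.0382), where 1.42% of genes were called higher and 2.7% lower. Wnt8b was 0.87 ± 0.30 higher (adjusted p = 0.0723) and the remaining changes ran from −0.38 ± 0.32 for Six3 to 0.69 ± 0.63 for Rax. Without SFM replicate 1, Fezf2 (4.37 ± 0.37) was called higher, where 30.9% of genes were, and Lhx2 (−0.83 ± 0.30) lower, where 27.5% were.

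AA15 and AA100 were also set against SB, which has 1 library. AA100 was 571-fold (195 to 2770) below SB for Fezf2, 333-fold (142 to 1030) for Wnt8b, 154-fold (65.6 to 475) for Lhx2 and at least 76.3-fold for Fezf1. No gene was called by edgeR in AA15 against SB or AA100 against SB with all 7 libraries, although all 7 had an unadjusted p below 0.05 in both, as had 655 and 591 of the 12180 genes. DESeq2 called 5 of the 7 in AA15 against SB, beside 0.443% of genes called lower, and 6 in AA100 against SB, beside 0.345%. Without SFM replicate 2, all 7 were called lower in AA15 against SB, where 7.4% of genes were, and in AA100 against SB, where 6.65% were. Without SFM replicate 1 they were too, where 7.67% and 6.75% of genes were. The same number was called in AA15 against SB when those groups were fitted alone, where 7.5% of genes were. Fezf1, with 3 and 2 counts in AA15, passed the filter in that fit through SB alone, so its call there is no support.

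Other genes of the anterior neural plate were followed as a list of 25, of which 15 passed the filter for the dose slope. The paired box gene Pax6 was the only one called, with 436 CPM in SB, 185 and 370 CPM in SFM, 14.6 CPM in AA3, 4.14 and 4.8 CPM in AA15 and 1.62 CPM in AA100, a slope of −2.68 ± 0.33 (edgeR, adjusted p = 0.0352). Without SFM replicate 2 the median slope of the 15 was −0.60, beside 0.0007 over all genes, and that of Pax6 was −2.35 ± 0.16. Lmo3 passed the filter in that fit through SFM replicate 1 alone, at 0.909 CPM against at most 0.0637 CPM with activin. Its slope there is therefore no support. Emx2, a cortical homeobox gene, had 153 and 265 CPM in SFM, 18.5 CPM in AA3, 9.49 and 8.98 CPM in AA15 and 12.6 CPM in AA100, and its slope of −1.58 ± 0.34 was not called. Otx2 had 886 and 50.6 CPM in SFM, 709 CPM in AA3, 714 and 830 CPM in AA15 and 802 CPM in AA100, so that AA3 was 1.25-fold below SFM replicate 1 and far above SFM replicate 2. In SB against SFM without SFM replicate 2, the genes of this list called higher included Barhl2, Nr2e1 and Pax6, and Fgf15 was called lower.

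Genes of more posterior neural tissue and of the neural plate at large were followed in the same way. Of 13 tested midbrain, hindbrain and spinal cord genes, En1 and Pax3 were called lower along the dose, beside 0.248% of all genes. Without SFM replicate 2 the slopes of En1 and Pax3 (−1.88 ± 0.22) were negative and that of Fgf8 positive. Pax2 and Wnt1 passed the filter in that fit through SFM replicate 1 alone, where they were high. Their slopes there are therefore no support. Of 15 tested pan-neural genes, Foxd4 alone was called lower, and without SFM replicate 2 Foxd4, Hes5, Sox1, Sox2 and Sox3 were. Median slopes were −0.69, −0.59 and −0.13 for the anterior, posterior and pan-neural lists. Of 5 tested Wnt ligands of the caudal and streak side, none was called with all libraries. Without SFM replicate 2, the slopes of Wnt3 (1.57 ± 0.27) and Wnt8a (1.24 ± 0.23) were positive, and that of Wnt8b was negative. The slope of Wnt1 was also negative (−2.58 ± 0.29), with the limit given above.

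Markers of other cell types moved along the same libraries. The 7 primitive streak markers summed to 2.46 CPM in SB, with 4 of them counted, and to 89.1 and 21.5 CPM in SFM, 268 CPM in AA3, 475 and 602 CPM in AA15 and 1060 CPM in AA100, with all 7 counted. The 6 definitive endoderm markers, all counted in every library, summed to 54.3 CPM in SB, 93.7 and 54.5 CPM in SFM, 118 CPM in AA3, 288 and 252 CPM in AA15 and 919 CPM in AA100. The 6 neuronal markers summed to 175 CPM in SB, 160 and 411 CPM in SFM, 68.2 CPM in AA3, 41.5 and 39.2 CPM in AA15 and 43.6 CPM in AA100, and Dcx had 0 counts in all 7 libraries. Streak and endoderm markers were thus high where the forebrain genes were low, and their part in the forebrain result was not tested. The remaining sums were 4.06 CPM in SB, 4.83 to 6.76 CPM in SFM and 1.1 to 1.91 CPM with activin for neural crest, and 32.4, 61.1 to 123 and 312 to 454 CPM for epiblast. They were 42.4, 45.5 to 125 and 43.4 to 88.8 CPM for visceral endoderm, and 124, 12.2 to 178 and 416 to 537 CPM for surface ectoderm, in the same order of groups.

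Over the 7 dose-set libraries, each gene's log2 CPM had a Pearson r of 0.859 (Fezf2) to 0.979 (Fezf1) with the mean standardised profile of the other members. The points share the libraries and their depth, so this is a description. Among 7516 other genes with a mean of at least 5 CPM, the closest to the mean profile of the 8 were Rbis (r = 0.991), Prr36 (0.986), Septin3 (0.984), Tmem38b (0.983) and Lmx1a (0.982). Lmx1a, a LIM homeobox gene of the roof plate and cortical hem, had 15.6 CPM in SB, 13.4 and 8.5 CPM in SFM, 3.31 CPM in AA3, 0.255 and 0.411 CPM in AA15 and 0.259 CPM in AA100. Rbis, at the top by r, had 10.3 CPM in SB, 10.9 and 7.43 CPM in SFM, 8.15 CPM in AA3, 7.39 and 7.2 CPM in AA15 and 6.8 CPM in AA100, so a high r went with a small range of levels.

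The method set addressed whether a difference between AA100 and AA3 is seen alike by each way of making the library. Most of the forebrain genes were at or near 0 there, and Six3 and Hesx1 were the only ones tested in all 3 methods. Hesx1 had 20.7 CPM in AA100 against 8.29 and 8.74 CPM in AA3 by standard RNA-seq. By DP-seq it had 5.79 and 14 CPM in AA100 against 22.5 CPM in AA3, and by SMART-seq 45.5 and 68 CPM in AA100 against 66.9 and 53.3 CPM in AA3. AA100 was thus above AA3 by standard RNA-seq, below it by DP-seq and overlapped it by SMART-seq. In the dose set, by contrast, AA100 was far below AA3, at 0.129 against 3.88 CPM for Hesx1 and 1.1 against 21.5 CPM for Six3. The difference between the sets was not tested at these doses.

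Six3 had 30.7 CPM in AA100 against 20.2 and 21.9 CPM in AA3 by standard RNA-seq. By DP-seq it had 2.98 and 3.88 CPM in AA100 against 5.06 CPM in AA3, and by SMART-seq 3.2 and 7.73 CPM in AA100 against 3.8 and 3.37 CPM in AA3. Lhx2 had 0.385 CPM in AA100 against 1.02 and 0.865 CPM in AA3 by standard RNA-seq, 0 and 1.12 CPM against 2.53 CPM by DP-seq, and 0 counts in all 4 SMART-seq libraries. Rax was counted mainly by standard RNA-seq, with 2.79 CPM in AA100 against 2.61 and 4.42 CPM in AA3, and had at most 8 counts in any DP-seq or SMART-seq library of the set. Fezf1, Fezf2, Wnt8b and Lhx5 had at most 6 counts in every library of the method set. A count of 0 still allows 0.0980 to 0.116 CPM in the SMART-seq libraries and 0.224 to 0.281 CPM in the DP-seq libraries.

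**Figure D3:**
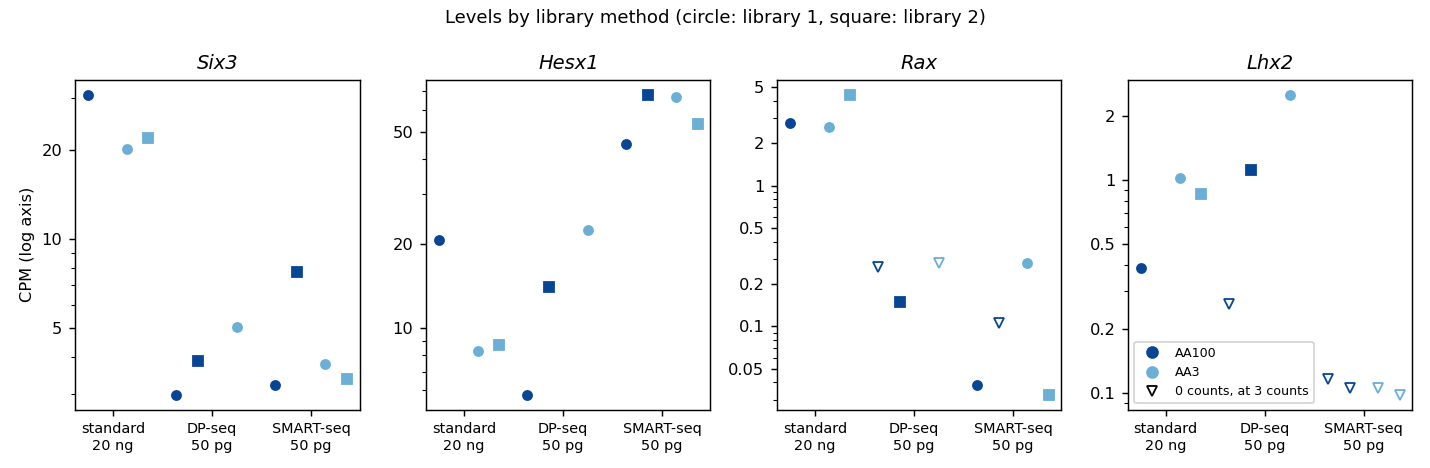
Levels of Six3, Hesx1, Rax and Lhx2 (CPM, log axis) in the 10 libraries of the method set, with AA100 in dark blue left of AA3 in light blue for each method. Circles are library 1, squares library 2, and open triangles are 0 counts, drawn at 3 counts. Hesx1 in AA100 is above AA3 by standard RNA-seq and below it by DP-seq, and Lhx2 has no counts by SMART-seq.

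By standard RNA-seq 4 of the 8 genes passed the filter, and Hesx1 (1.30 ± 0.14, edgeR, adjusted p = 2.83e-18) and Six3 (0.57 ± 0.11, adjusted p = 3.64e-07) were called higher in AA100. With 31.1% of 12605 genes called higher and as many lower, 2 of 4 was near the background, and the spread was that of the AA3 technical pair alone. In a fit of all 10 libraries neither was called (Hesx1 1.29 ± 0.49, adjusted p = 0.428; Six3 0.56 ± 0.71, adjusted p = 1), where 1.12% of genes were higher and 0.796% lower, nor was either without AA3 replicate 1, where 0.185% were higher and 0.149% lower, or without AA3 replicate 2, where 0.213% and 0.164% were. DESeq2 on the standard libraries called the same 2 genes, beside 17.8% of genes higher and 17.4% lower. By DP-seq edgeR called 0 of the 3 genes that passed the filter, where 2.27% of genes were called higher and 1.16% lower, none had an unadjusted p below 0.05, and DESeq2 called 0, beside 2.67% and 1.07%. Hesx1 was at −1.20 ± 0.65 there (adjusted p = 0.394). By SMART-seq edgeR called 0 of 2, where 0.786% of genes were higher and 0.568% lower, none had an unadjusted p below 0.05, and DESeq2 called 0, beside 5.02% and 4.89%. The difference between methods was tested directly. For Hesx1 the change by DP-seq minus that by standard RNA-seq was −2.49 ± 0.69 (unadjusted p = 0.00802, adjusted p = 0.21), and by SMART-seq minus standard RNA-seq −1.51 ± 0.64 (unadjusted p = 0.0474, adjusted p = 0.5). Thus edgeR called 0 of 4 genes in either, where 0.334% of genes were higher and 0.405% lower for DP-seq, and 0.249% and 0.604% for SMART-seq. DESeq2 called Hesx1 for DP-seq (adjusted p = 0.0156), where 1.62% of genes were higher and 1.99% lower, and 0 for SMART-seq, where 1.16% and 2.23% were. Beside these values, the definitive endoderm markers summed to 1143 CPM in AA100 against 637 and 636 CPM in AA3 by standard RNA-seq. They summed to 2498 and 2117 CPM against 528 CPM by DP-seq and to 1190 and 1275 CPM against 247 and 282 CPM by SMART-seq. The median log2 change of the 6 markers was 0.68 by standard RNA-seq, 0.36 by DP-seq and 0.05 by SMART-seq. By edgeR, Cer1 alone was called higher by DP-seq and by SMART-seq, and Foxa1 was called lower by DP-seq. Standard RNA-seq called Foxa1 lower and the other 5 higher. The part of these markers in the Hesx1 result was not tested.

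In the DP-seq dilution series, which used 1 dose, Six3 and Hesx1 were again the genes with usable counts. Six3 had 0 and 0 counts at 1 pg, 3 and 1 at 10 pg, 12 and 40 at 50 pg, 48 and 30 at 100 pg, 82 and 74 at 1 ng and 22 and 82 at 10 ng. In CPM the Six3 libraries at 50 pg were 2.87-fold apart, and those at 10 ng 1.12-fold apart, at 7.07 and 7.94 CPM. Hesx1 had 0 and 0 counts at 1 pg, 52 and 68 at 10 pg, 40 and 56 at 50 pg, 41 and 55 at 100 pg, 57 and 65 at 1 ng and 10 and 27 at 10 ng. Its level was 18.5 and 21.5 CPM at 10 pg but 3.22 and 2.62 CPM at 10 ng, so the level of Hesx1 was higher at the smaller input while that of Six3 was lower. Fezf1 had 0 counts in all 12 libraries, and Lhx2 had 0 counts at 1, 10 and 50 pg and 1 to 6 counts per library above that. At 1 pg a count of 0 still allows 7.02 and 6.68 CPM in the 2 libraries, so it does not show a lower level there than at 10 ng.

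**Figure D4:**
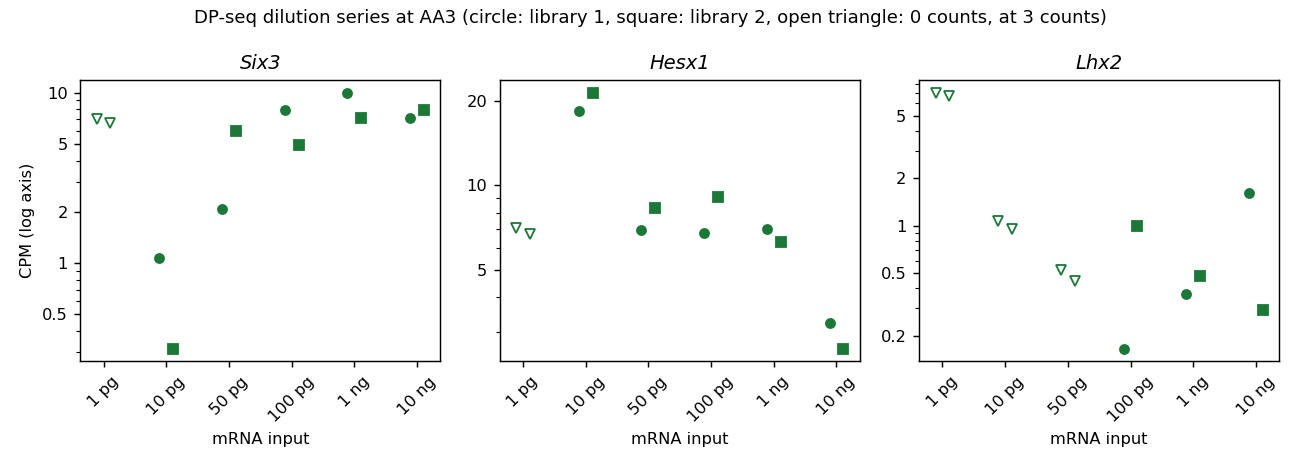
Levels of Six3, Hesx1 and Lhx2 (CPM, log axis) in the DP-seq dilution series at AA3, with mRNA input rising from left to right. Circles are library 1, squares library 2, and open triangles are 0 counts, drawn at 3 counts. Six3 is lower at 10 pg than at 10 ng, Hesx1 is higher, and all are at 0 counts at 1 pg, where 3 counts stand at 7.02 and 6.68 CPM.

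The AA3 label covers libraries of the dose set and of the dilution series, both made by DP-seq, and the forebrain genes differed between them. This comparison was chosen after the values were seen, and sets a single library against a technical pair. Of the 7 genes that passed the filter, Fezf2, Wnt8b, Fezf1 and Lhx5 did so through the dose-set library alone, where they were high, so their tests are no support. Of the other 3, edgeR called Lhx2 and Six3 higher in the dose-set library, where 24% of 11414 genes were called higher and 23.7% lower. Fezf2 had 201 counts in the dose-set library against 0 and 0 counts at 10 ng, at least 13.3-fold higher than in replicate 1 and at least 44-fold higher than in replicate 2. Lhx2 had 11.3 CPM in the dose set against 1.61 and 0.291 CPM at 10 ng, a log2 difference of 4.38 ± 0.47 (adjusted p = 4.06e-09). Wnt8b had 50 counts against 0 and 1, and Fezf1 had 17 counts against 0 and 0, at least 1.12-fold and at least 3.72-fold higher. Six3 had 21.5 CPM against 7.07 and 7.94 CPM (1.70 ± 0.25, adjusted p = 9.92e-07). Hesx1 (0.69 ± 0.39, adjusted p = 0.147) was not called, and Rax did not pass the filter. DESeq2 called Lhx2 and Six3 too, beside 13.1% of genes called higher and 10.7% lower. The primitive streak markers summed to 268 CPM in the dose-set library against 980 and 1264 CPM at 10 ng, and definitive endoderm markers to 118 CPM against 482 and 527 CPM. Their part in the difference was not tested, and the RNA sample and the library preparation cannot be told apart in it.

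**Figure D5:**
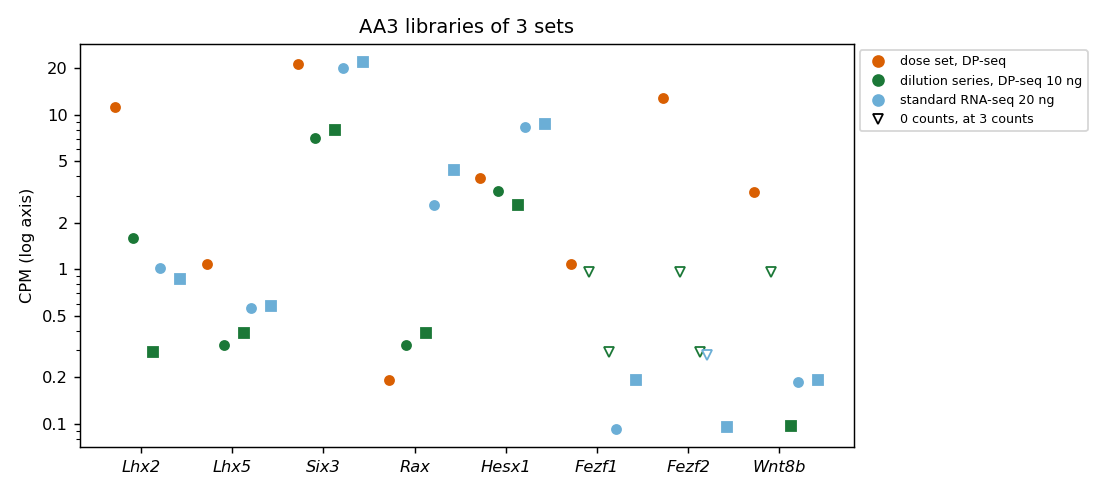
Level of each gene (CPM, log axis) in AA3 libraries of 3 sets: the dose set (orange), the 10 ng libraries of the dilution series (green) and standard RNA-seq (blue). Circles are library 1, squares library 2, and open triangles are 0 counts, drawn at 3 counts. Lhx2, Fezf2, Wnt8b and Six3 by DP-seq are higher in the dose set than at 10 ng, and Hesx1 is close between them.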

How the data were processed

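Gene expression was measured in mouse embryoid body RNA by DP-seq, standard RNA-seq and SMART-seq. The authors deposited unique read counts per RefSeq transcript, per the file headers. In 8 files 15 values were not whole, so these deposited tables were treated as estimated counts and rounded. The sources used here do not give the aligner, build, annotation release or strand use. Of 26566 transcripts, 25857 were named through the RefSeq gene table and 150 through GENCODE, 559 stayed unnamed, and counts were summed to 21844 genes.

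Tests used edgeR 4.0.16 in R 4.3.3 on the whole table: filterByExpr by group (minimum count 10, minimum total 15), TMM scaling, robust quasi-likelihood fits and Benjamini-Hochberg adjustment at 0.05. The ± of a log2 change is its standard error. Dose contrasts used all 7 dose-set libraries, the slope 6 of them, method contrasts each method's own libraries, and differences between methods all 10. A group with 1 library was assumed to vary like the others in its fit. P-values of the contrasts measure the spread between these libraries, which is technical except perhaps for SFM. In the slope fit the spread also holds the departures of the dose levels from a straight line. Alternatives were DESeq2 1.42.0, its size factors in edgeR, no count filter, other dose scales, fewer groups, a replicate block and leaving out each replicate. The comparison of the AA3 sets was added after seeing the data. Ratios between libraries have exact (Clopper-Pearson) 95% intervals or, where the lower count was 0, a bound from a floor of 3 counts per library. Both cover only the error of counting, as reads amplified without molecular identifiers do not each stand for a molecule. The tests were tried on simulated counts. Python 3.11.15, numpy 2.4.6, pandas 2.3.3, scipy 1.17.1 and matplotlib 3.10.9 made tables and figures.

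The 8 genes, the gene lists and the marker lists were chosen with earlier results of these data known. From each list up to 4 tested genes with the largest slope could be named, beside those called. Pax3, Wnt1 and Fgf8 stand in more than one list. A gene of the anterior list is counted but not reported here by name.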

Additional observations from a re-analysis of the deposited data

Results flagged for a closer look

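The paired-end DP-seq library and the 3 libraries made with primer sets designed to suppress ribosomal transcripts, all at 3 ng/mL activin and each a single library, entered no comparison, and the forebrain genes had counts above the floor of 3 counts in them. The paired-end library held 9 counts of Six3 and 9 of Hesx1. Primer set 1 gave 199 counts of Six3 and 4 of Hesx1, primer set 2 gave 96 of Six3, 35 of Hesx1 and 4 of Fezf2, and primer set 3 gave 46 of Six3, 11 of Hesx1 and 5 of Lhx2. In CPM, Six3 stood at 1.54 in the paired-end library and at 33.2, 19.1 and 8.56 with primer sets 1, 2 and 3. No group had the 4 libraries needed to test for a library far from the others.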

How the results depend on the processing

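With Rax included, the number of the 8 genes called lower along the dose was 3 with all libraries, 8 with DESeq2, 6 with SB as the lowest step, and 0 to 8 when 1 replicate was left out. In the contrasts edgeR called 0 with all libraries, and 0 when either AA15 replicate was left out. Leaving out either SFM replicate gave calls in each contrast, and the shares of all genes called stand with each contrast above. These calls were lower, except that some were higher in SB against SFM and in AA3 against SFM. DESeq2 gave 1 in AA3 against SFM, 5 in AA15 against SFM and against SB, and 6 in AA100 against SFM and against SB. Fitting only the groups compared gave 8 in AA15 against SB, 4 in AA15 against AA3 and 1 in AA100 against AA15, and could not be done for AA100 against SB, with 1 library each. When AA15 and SB were fitted alone, Rax and Fezf1 passed the filter through SB only. With AA100 and AA15 fitted alone, Fezf2 did so through AA15 only. By standard RNA-seq the 2 calls became 0 in the joint fit and 0 to 0 when a replicate was left out (fitted jointly, as for DP-seq), and the difference between DP-seq and standard RNA-seq gained 1 with DESeq2. The cause was not tested. The AA3 sets had no leave-one-out fit.

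Of the single-gene log2 changes, 576 kept direction and call, 146 gained a call, 18 lost one and 23 changed sign. In SB against SFM, Six3 was −0.0209 with DESeq2 size factors and −0.021 with DESeq2, and Fezf1 was −0.0389 and −0.0393. Leaving out 1 replicate gave −0.83 to 0.49 for Lhx2, −0.80 to 0.40 for Lhx5, −0.38 to 0.51 for Six3, −0.39 to 0.55 for Fezf1 and −0.40 to 0.87 for Wnt8b in SB against SFM, and −0.29 to 0.60 for Six3 and −2.09 to 1.32 for Fezf2 in AA3 against SFM. It gave −0.63 to 0.49 for Lhx5 in AA100 against AA15, −0.64 to 0.13 for Rax by standard RNA-seq, −0.23 to 1.06 for Six3 and −0.47 to 0.13 for Hesx1 by SMART-seq, and −0.87 to 0.43 for Six3 in SMART-seq minus standard RNA-seq. Lhx2 and Rax, with few counts, were left out of these totals for the differences between methods. Lhx2 in DP-seq minus standard RNA-seq was −0.92 ± 3.27 and ran from −7.15 to 0.05, with no call.

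SFM and AA15 share replicate numbers 1 and 2, but deviations of same-numbered libraries correlated at −0.195 (SMART-seq groups −0.0151), so the numbers do not pair them. With the replicate block 0 of the 8 genes were called along the dose, 0 in each contrast, and the sign changed for Lhx5 (0.40) and Six3 (−0.16) in SB against SFM, Six3 (−0.0732) in AA3 against SFM and Lhx5 (0.53) in AA100 against AA15. Depth limits Rax, Lhx5 and Fezf1, with 10 counts or fewer per library at 15 and 100 ng/mL.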

Other observations

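Six6, an eye field homeobox gene related to Six3, had 6 to 23 counts per library in the dose set, with 8 counts in SB, 6 and 23 in SFM, 22 in AA3, 11 and 12 in AA15 and 6 in AA100. It had 102 counts (20.3 CPM) in the primer set 2 library, 15 in primer set 3 and 0 in primer set 1. Otx2 in the same libraries stood at 18.1 CPM with primer set 2, against 340 CPM with primer set 1 and 366 CPM with primer set 3. Six3os1 had 0 counts with primer sets 2 and 3, where Six3 had 96 and 46.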
